A study of Homo sapiens with 12 samples.

Results

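The genes described here encode the inhibitors of cyclin-dependent kinases (CDKs). They are the 3 CIP/KIP genes CDKN1A, CDKN1B and CDKN1C, the 4 INK4 genes CDKN2A, CDKN2B, CDKN2C and CDKN2D, and CDKN3. These 8 genes were chosen by name and by no rule on their values, although earlier results of these data were known. Among the 22784 gene symbols with expression values, all 8 were found. Of them, 7 were expressed highly enough to be tested, out of 14839 symbols tested in all, and CDKN1C was not. SK-UT-1 is an established human cell line from a uterine leiomyosarcoma, a malignant smooth muscle tumor of the uterus. JQ1 and I-BET 762 are small molecules that bind the bromodomain pocket of the BET proteins, which read acetylated lysines on chromatin. The cells were treated for 48 h with 5 µM JQ1 or 5 µM I-BET 762, or with the DMSO vehicle, which the labels call VEH, and their total RNA was sequenced in strand-specific libraries. The labels hold 4 libraries per group, and values were analysed for 3 DMSO libraries (replicates 13, 14 and 15), 4 JQ1 libraries (17, 18, 19 and 20) and 3 I-BET 762 libraries (21, 22 and 23). DMSO replicate 16 and I-BET 762 replicate 24 were not analysed here, because the expression values used hold no column for them. The authors state that outlier samples were left out, and whether these libraries were among them is not given. All libraries come from 1 cell line at 1 dose and 1 time, and nothing in the labels says that replicates were separate cultures, so p-values measure the spread between these samples, which may be technical.

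A CDK drives the cell cycle only when bound to a cyclin, and the CDK inhibitors act at this step. The INK4 proteins bind CDK4 and CDK6 and keep D-type cyclins away from them, while the CIP/KIP proteins bind complexes of cyclins with CDKs, above all those of CDK2. When CDK4, CDK6 and CDK2 are held inactive, the retinoblastoma protein stays unphosphorylated, E2F factors stay bound and the cell remains in G1. CDKN3 is of a different kind, being a phosphatase that removes the activating phosphate from CDK2. BET inhibitors are known to slow the passage through G1 in many tumor cells, and the RNA of the CDK inhibitor genes is one of the readouts of that question.

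The genes lie on 7 chromosomes, with CDKN2A and CDKN2B side by side, and their positions are given on GRCh38 with Gencode V44 annotation. CDKN1A (ENSG00000124762.14) spans chr6:36676460-36687337 on the plus strand, and CDKN1B (ENSG00000111276.12) spans chr12:12685498-12722369 on the plus strand. CDKN2A (ENSG00000147889.18) spans chr9:21967752-21995301 on the minus strand, and CDKN2B (ENSG00000147883.12) spans chr9:22002903-22009305 on the same strand, 7602 bases away. CDKN2C (ENSG00000123080.12) spans chr1:50960745-50974634 on the plus strand. CDKN1C lies on chromosome 11, CDKN2D on chromosome 19 and CDKN3 on chromosome 14. For each of the 8 genes, 0 of the 75-base stretches of its exons had an exact copy elsewhere in the reference genome, so their reads are not shared with an identical paralog.

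The promoters of CDKN1A, CDKN1B and CDKN2C are shown because the RNA of these 3 genes changed with both inhibitors. Each sequence is taken from the 250 bases before a RefSeq start of the gene (GRCh38.p14) and is limited to the longest stretch without an annotated exon, so the CDKN1A sequence ends 5 bases before the start. The coordinates, all on the plus strand, are chr6:36678560-36678709 for CDKN1A, chr12:12717118-12717367 for CDKN1B, and chr1:50960495-50960744 and chr1:50969995-50970244 for CDKN2C. The CDKN1A, CDKN1B and later CDKN2C sequences lie inside the annotated gene bodies, outside annotated exons. Only the upstream CDKN2C sequence lies before its annotated gene body. Capitals mark GC boxes, CCAAT boxes and E-boxes.
CDKN1A: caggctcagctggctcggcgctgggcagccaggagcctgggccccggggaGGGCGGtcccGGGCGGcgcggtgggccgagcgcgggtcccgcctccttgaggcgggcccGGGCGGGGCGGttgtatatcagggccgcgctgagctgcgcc
CDKN1B: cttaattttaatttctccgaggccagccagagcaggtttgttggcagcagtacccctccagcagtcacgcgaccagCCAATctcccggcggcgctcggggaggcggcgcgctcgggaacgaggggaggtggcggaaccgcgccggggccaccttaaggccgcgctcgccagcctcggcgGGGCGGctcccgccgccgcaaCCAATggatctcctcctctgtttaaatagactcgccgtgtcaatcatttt
CDKN2C, upstream start: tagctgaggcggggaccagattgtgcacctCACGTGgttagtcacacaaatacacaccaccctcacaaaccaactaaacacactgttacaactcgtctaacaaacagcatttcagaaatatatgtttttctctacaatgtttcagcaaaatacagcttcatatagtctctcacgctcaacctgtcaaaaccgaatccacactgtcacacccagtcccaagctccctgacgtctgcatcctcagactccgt
CDKN2C, later internal start: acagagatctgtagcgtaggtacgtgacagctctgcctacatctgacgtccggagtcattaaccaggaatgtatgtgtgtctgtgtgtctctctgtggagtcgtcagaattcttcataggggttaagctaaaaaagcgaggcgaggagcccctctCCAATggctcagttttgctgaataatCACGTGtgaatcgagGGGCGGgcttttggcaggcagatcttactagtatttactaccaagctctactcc

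Each motif was searched on both strands: the GC box as GGGCGG, the CCAAT box as CCAAT and the E-box as CACGTG, the palindrome that MYC is known to bind. The CDKN1A window held 4 GC boxes, starting 104, 94, 45 and 40 bases before the start, and the last pair overlaps. It held no CCAAT box and no E-box. The CDKN1B window held 1 GC box and 2 CCAAT boxes. The CDKN2C windows shown each held 1 E-box, and the internal one also held 1 GC box and 1 CCAAT box. Another internal CDKN2C window, chr1:50968456-50968705, lies wholly in annotated exons and is not shown, and it held 5 GC boxes, no CCAAT box and no E-box. Of 35116 promoter windows of the same length, 42.6% held a GC box, 32.0% a CCAAT box and 6.3% an E-box. These matches describe the sequences only, and no binding was measured in these libraries.

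Values are given as normalized counts, which are reads divided by the library's scaling factor, for libraries with 35564586 to 39658989 reads on genes. The 2 comparisons of an inhibitor with DMSO share the DMSO libraries. Changes are log2 fold changes with their standard error (SE) from limma fitted to all 10 libraries, with p-values adjusted by the Benjamini-Hochberg method over the 14839 genes tested. The fit used the log2 of the normalized count plus 1. A gene was called a differentially expressed gene (DEG) when its adjusted p-value was under 0.05 and its fold change over 1.5. With JQ1, 2 of the 7 tested CDK inhibitor genes were DEGs, against 36.1% of all genes tested, 1 of them higher (13.3% of all genes) and 1 lower (22.8%). An adjusted p-value under 0.05 alone was reached by 3 of 7, against 71.7%, with 1 higher (36.0%) and 2 lower (35.6%). With I-BET 762, 2 of 7 were DEGs, against 26.9% of all genes, again 1 higher (8.96%) and 1 lower (17.9%). The adjusted p-value alone was under 0.05 for 4 of 7, against 61.1%, with 1 higher (29.9%) and 3 lower (31.3%). These shares of members were near or below those of all genes, so no count of changed members is a result about the family. All libraries of 1 treated group lay outside the range of the DMSO libraries for 3 of 7 members with JQ1 (68.4% of all genes tested) and for 5 of 7 with I-BET 762 (71.0%).

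**Figure D1:**
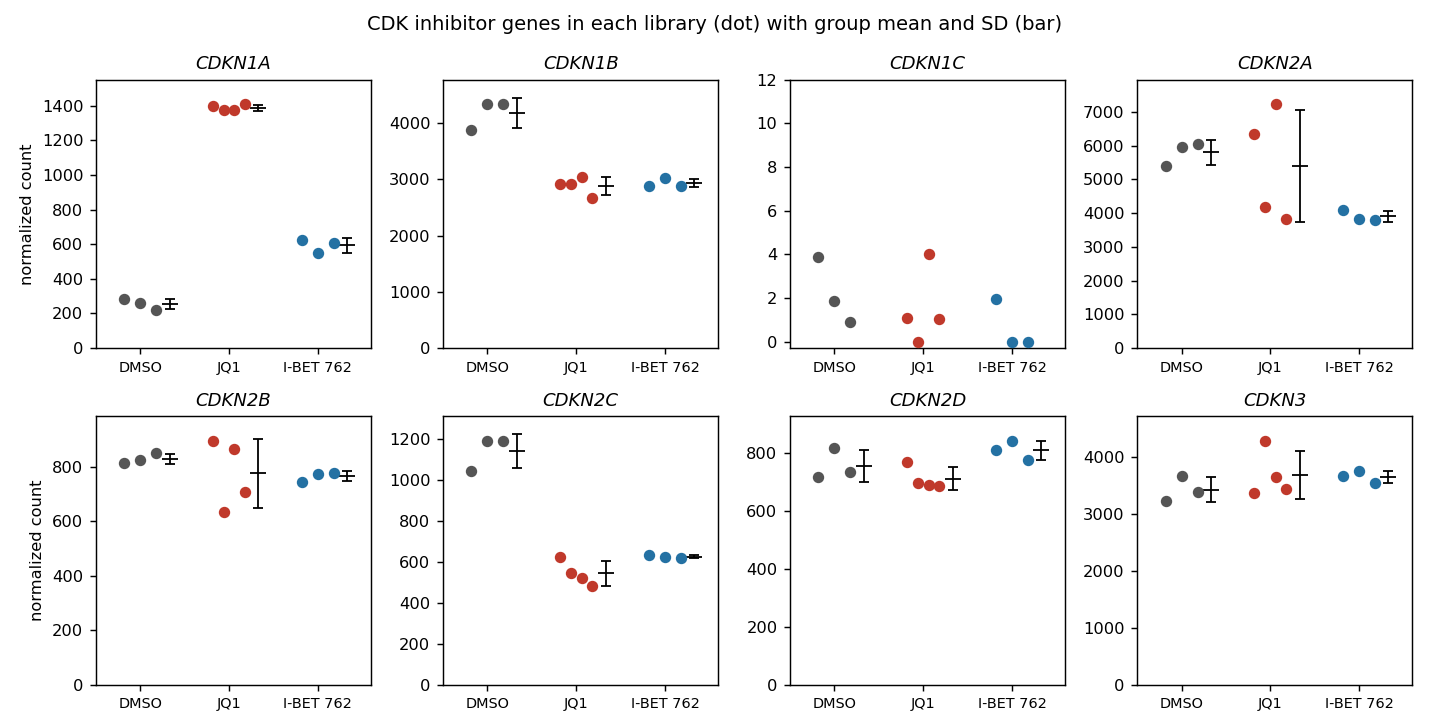
Normalized counts (vertical axis, from 0) of the 8 CDK inhibitor genes in DMSO, JQ1 and I-BET 762 libraries; dots are libraries and the bar to their right is the group mean ± SD (n = 3, 4 and 3), which is left out for CDKN1C with its 0 to 4 reads per library. CDKN1A rises in 2 steps from DMSO to I-BET 762 to JQ1, CDKN1B and CDKN2C lie lower in all treated libraries, and the JQ1 libraries spread widely for CDKN2A and CDKN2B.

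CDKN1A encodes p21, the CIP/KIP protein best known for halting the cell in G1 after DNA damage. It had 281, 261 and 222 normalized counts in the DMSO libraries, 1396, 1377, 1373 and 1409 in the JQ1 libraries, and 624, 546 and 609 in the I-BET 762 libraries. The 3 groups did not overlap, with JQ1 highest, I-BET 762 between and DMSO lowest. CDKN1A rose 5.46-fold with JQ1 (log2 fold change 2.45, SE 0.08, limma adjusted p = 3.98e-13) and 2.33-fold with I-BET 762 (1.22, SE 0.08, adjusted p = 6.70e-09). It was the only member that rose with either inhibitor. In annotation, 146 exon bases of CDKN1A lie opposite the noncoding RNA DINOL, which had 0 to 3 reads per library.

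CDKN1B encodes p27, the CIP/KIP protein that accumulates in resting cells and is degraded as cells enter S phase. Its DMSO libraries had 3877, 4333 and 4334 normalized counts, its JQ1 libraries 2922, 2912, 3035 and 2658, and its I-BET 762 libraries 2884, 3017 and 2887. Every treated library lay below every DMSO library, while the 2 inhibitors overlapped each other. CDKN1B fell with JQ1 to 0.689 of its DMSO level (log2 fold change -0.54, SE 0.06, limma adjusted p = 3.07e-07) and with I-BET 762 to 0.701 (-0.51, SE 0.06, adjusted p = 2.01e-06). Neither change reached 1.5-fold, so CDKN1B was no DEG. When all libraries were scaled to the same total, CDKN1B passed that fold with both inhibitors, at -0.72 and -0.61.

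CDKN1C encodes p57, a CIP/KIP protein of imprinted expression that restrains growth in the embryo. Only 4, 2 and 1 reads fell on it in the DMSO libraries, 1, 0, 4 and 1 in the JQ1 libraries and 2, 0 and 0 in the I-BET 762 libraries. By counting error alone, a count of 0 allows up to 3 reads in a library, which is between 2.73 and 3.30 normalized counts. No difference in CDKN1C was detectable at this depth.

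CDKN2C encodes p18, an INK4 inhibitor of CDK4 and CDK6. It had 1046, 1193 and 1190.3 normalized counts with DMSO, 626, 546, 521 and 484 with JQ1, and 637, 623 and 620.2 with I-BET 762. All treated libraries were far below the DMSO libraries, and the JQ1 and I-BET 762 ranges overlapped only through JQ1 replicate 17. CDKN2C fell to 0.476 of its DMSO level with JQ1 (log2 fold change -1.07, SE 0.08, limma adjusted p = 8.38e-09) and to 0.549 with I-BET 762 (-0.86, SE 0.09, adjusted p = 4.56e-07). It was the only member called a DEG in the downward direction, with both inhibitors. Of its annotated exon bases, 617 (20.4%) lie opposite an unnamed noncoding RNA that was not analysed here, and the strand setting of the counting is not given in the sources used here, so reads of the 2 strands may not be separated.

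CDKN2A encodes p16 from one reading frame, an INK4 inhibitor of CDK4 and CDK6, and a different protein, ARF, from another. Gene-level counts do not separate these transcripts. The DMSO libraries had 5385, 5964 and 6058 normalized counts, and the I-BET 762 libraries had 4083, 3818 and 3804, all below them. The JQ1 libraries had 6345, 4193, 7230.2 and 3823, so that replicates 17 and 19 lay above every DMSO library and replicates 18 and 20 below every one. CDKN2A fell with I-BET 762 (log2 fold change -0.57, SE 0.17, limma adjusted p = 0.00820), just short of 1.5-fold, and this call was lost without the intensity trend in the variance (adjusted p = 0.0528). It passed that fold, as a DEG, under 4 of 19 alternatives, among them scaling to the same total (-0.67) and to the same upper quartile (-0.61). With JQ1 the log2 fold change was -0.15 (SE 0.16, 95% interval -0.49 to 0.18, adjusted p = 0.395). Without JQ1 replicate 19 it was -0.31 (adjusted p = 0.0429).

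CDKN2B encodes p15, the INK4 inhibitor known for its induction by TGF-β. It had 813, 825 and 849 normalized counts with DMSO, 894, 633, 864 and 707 with JQ1, and 743, 774 and 778 with I-BET 762. As for CDKN2A, JQ1 replicates 17 and 19 were above the DMSO libraries and replicates 18 and 20 below them, while the I-BET 762 libraries all lay slightly below. The log2 fold change was -0.11 (SE 0.10, 95% interval -0.32 to 0.09, limma adjusted p = 0.315) with JQ1 and -0.12 (SE 0.10, 95% interval -0.34 to 0.10, adjusted p = 0.351) with I-BET 762. After scaling to the same total the value with JQ1 was -0.30 (adjusted p = 0.0271).

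The genes around this pair were compared in the same libraries. MTAP, which encodes an enzyme of methionine salvage and lies 30101 bases from CDKN2A, had 7271, 7529 and 7606 normalized counts with DMSO and 8562, 8778, 8650 and 8495 with JQ1. It rose slightly with JQ1 (log2 fold change 0.21, SE 0.04, limma adjusted p = 0.000244), and its JQ1 libraries did not show the split of CDKN2A. Scaling to the same total moved the median of all genes by -0.18 with JQ1, close to the size of the MTAP rise, which therefore depends on the scaling. CDKN2B-AS1, the antisense noncoding RNA also called ANRIL, had 855, 615 and 737 normalized counts with DMSO, 375, 437, 450.2 and 401 with JQ1, and 499.9, 475 and 575 with I-BET 762. CDKN2B-AS1 fell with JQ1 (-0.81, SE 0.11, adjusted p = 3.94e-06) and with I-BET 762 (-0.50, SE 0.11, adjusted p = 0.00119), without the split. It overlaps 593 exon bases of CDKN2A (15.3%) on the opposite strand, and the part of its reads in the CDKN2A count was not tested. The split was not confined to this locus. S1PR5, a neighbor of CDKN2D on chromosome 19, had 1027, 673, 1028 and 669 normalized counts in JQ1 replicates 17, 18, 19 and 20. Its DMSO libraries had 707, 803 and 815. What separates these JQ1 libraries was not tested.

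**Figure D2:**
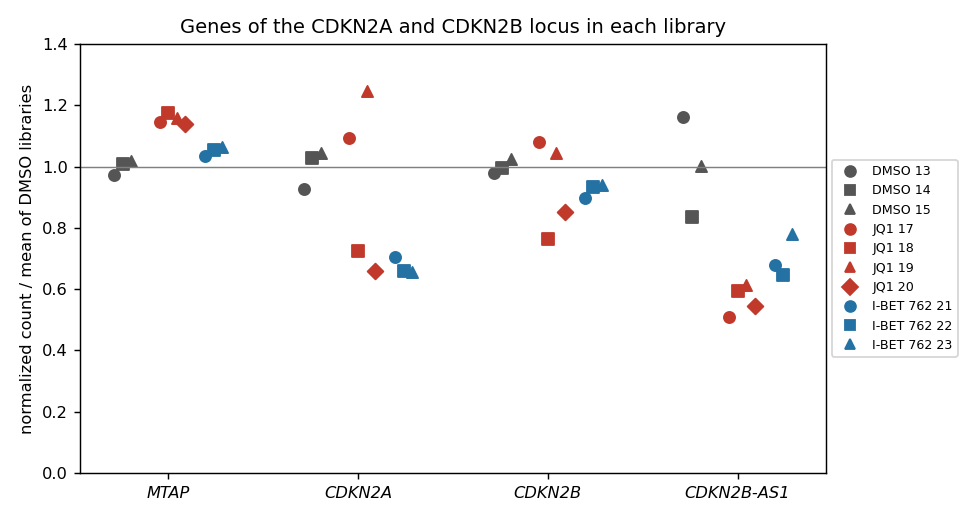
Normalized count of 4 neighboring genes of chromosome 9 in each library, divided by the mean of the DMSO libraries (vertical axis, from 0); color gives the group and shape the replicate. JQ1 replicates 17 and 19 lie above 1 and replicates 18 and 20 below 1 for CDKN2A and CDKN2B, whereas the JQ1 libraries lie close together for MTAP and CDKN2B-AS1.

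CDKN2D encodes p19, the fourth INK4 protein. The gene had 716, 819 and 733 normalized counts with DMSO, 770.3, 697, 689 and 687 with JQ1, and 809, 842 and 778 with I-BET 762. Both inhibitor groups overlapped the DMSO libraries, with log2 fold changes of -0.09 (SE 0.07, limma adjusted p = 0.262) for JQ1 and 0.10 (SE 0.07, adjusted p = 0.251) for I-BET 762. After scaling to the same total the value with JQ1 was -0.27 (adjusted p = 0.00262).

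CDKN3 had 3229, 3654 and 3371 normalized counts with DMSO, 3360.2, 4276, 3643 and 3440.3 with JQ1, and 3667, 3747 and 3538 with I-BET 762. The groups overlapped. Its log2 fold change was 0.10 with JQ1 (SE 0.07, 95% interval -0.05 to 0.25, limma adjusted p = 0.212), which turned to -0.08 after scaling to the same total, and 0.10 with I-BET 762 (SE 0.08, 95% interval -0.07 to 0.26, adjusted p = 0.288).

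JQ1 and I-BET 762 were also compared directly, at the same dose and time. CDKN1A was 2.34-fold higher with JQ1 (log2 fold change 1.23, SE 0.08, limma adjusted p = 8.19e-08), and it was the only 1 of the 7 members called, against 5.31% of all genes tested as DEGs and 27.3% by adjusted p-value alone. For CDKN1B the difference was -0.02 (95% interval -0.14 to 0.09, adjusted p = 0.775), for CDKN2B 0.00 (-0.20 to 0.21, adjusted p = 0.980) and for CDKN3 0.01 (-0.15 to 0.16, adjusted p = 0.966). CDKN2C was lower with JQ1 by a log2 fold change of -0.21 (95% interval -0.38 to -0.03, adjusted p = 0.0722), which missed the threshold. The difference in CDKN2D was -0.19 (-0.33 to -0.04, adjusted p = 0.0534), and all its JQ1 libraries lay below all its I-BET 762 libraries. With CDKN1A, it was 1 of the 2 members whose inhibitor groups did not overlap, as in 33.8% of all genes tested. The value for CDKN2A was 0.42 (0.08 to 0.75, adjusted p = 0.0627), and it passed the threshold without JQ1 replicate 18 (0.52, adjusted p = 0.0144) or without JQ1 replicate 20 (0.57, adjusted p = 0.00679). Without JQ1 replicate 17, CDKN2C (-0.28, adjusted p = 0.0145) and CDKN2D (-0.23, adjusted p = 0.0296) passed it.

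**Figure D3:**
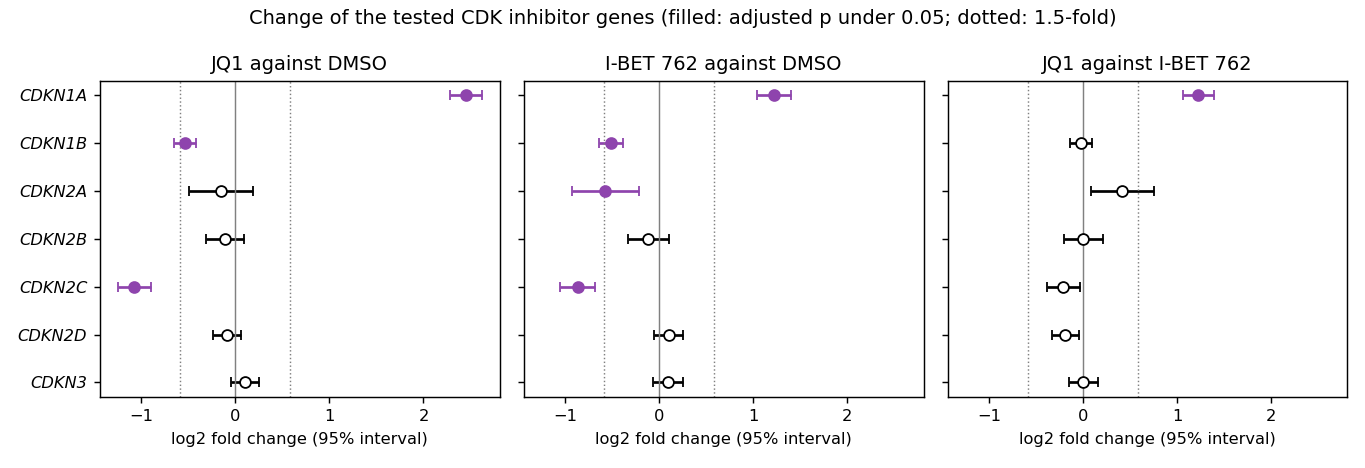
Log2 fold change with its 95% interval from limma (horizontal axis) of the 7 tested CDK inhibitor genes, for JQ1 against DMSO, I-BET 762 against DMSO, and JQ1 against I-BET 762; filled points have an adjusted p-value under 0.05 and dotted lines mark 1.5-fold. CDKN1A stands at 2.45, 1.22 and 1.23, CDKN2C at -1.07, -0.86 and -0.21, and the interval of CDKN2A is the widest in each panel.

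To compare levels between genes, recovered reads were divided by the length of the canonical transcript and by the library's reads on genes, as reads per kb per 1000000 reads. On this per-length scale the order in the DMSO libraries was CDKN2A (169 ± 7.83, SD, n = 3), CDKN3 (115 ± 5.50), CDKN1B (49.3 ± 2.25), CDKN2C (32.6 ± 1.83), CDKN2D (15.1 ± 0.894), CDKN2B (6.12 ± 0.114), CDKN1A (3.42 ± 0.445) and CDKN1C (0.0357 ± 0.0251), and no neighbors in this order overlapped. The order depends on the length used: per kb of all annotated exons summed, CDKN3 (53.1 ± 2.53) was above CDKN2A (42.4 ± 1.97), and CDKN2D (14.3 ± 0.846) was above CDKN1B (12.8 ± 0.587) and CDKN2C (10.8 ± 0.605). CDKN1A was the lowest of the tested members in vehicle-treated cells with either length. With JQ1 its per-length level was 16.4 ± 0.629 (SD, n = 4), above CDKN2D at 12.5 ± 0.902, and its range overlapped that of CDKN2C at 13.7 ± 1.62. With summed exon lengths both relations changed, since CDKN1A (11.6 ± 0.445) then overlapped CDKN2D (11.8 ± 0.854) and lay above CDKN2C (4.51 ± 0.533). With I-BET 762 it was 7.45 ± 0.547 (SD, n = 3), above CDKN2B at 5.28 ± 0.164 and below CDKN2D at 15.1 ± 0.481, and with summed exon lengths it overlapped CDKN2B (5.27 ± 0.386 and 5.09 ± 0.158). CDKN2A and CDKN3 overlapped with JQ1 (138 ± 44.1 and 109 ± 8.76), and with I-BET 762 CDKN3 (115 ± 2.33) was above CDKN2A (106 ± 3.86) in all libraries.

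Within the CIP/KIP family, CDKN1A made up 6.51% ± 1.05 (SD, n = 3) of the summed per-length level with DMSO, 35.5% ± 1.55 (n = 4) with JQ1 and 18.7% ± 1.43 (n = 3) with I-BET 762, and nearly all of the rest was CDKN1B. The family sum itself was 52.7 ± 1.85 with DMSO, 46.3 ± 1.88 with JQ1 and 39.8 ± 0.251 with I-BET 762, lower in every treated library. This order rests on the length used: with the summed length of all annotated exons, which is 9255 bases for CDKN1B rather than 2411, the sum was 14.9 to 15.6 in DMSO libraries and 18.5 to 19.9 in JQ1 libraries. The CDKN1A share was then 15.8%, 59.8% and 38.4%. Within the INK4 family, CDKN2A held 75.8% ± 0.409 with DMSO, 80.8% ± 3.92 with JQ1 and 74.1% ± 0.768 with I-BET 762. The CDKN2C share was 14.7% ± 0.188, 8.41% ± 1.79 and 11.7% ± 0.194, and its groups did not overlap. The INK4 sum was 222 ± 9.92 with DMSO and 143 ± 3.76 with I-BET 762, and it ranged from 128.8 to 217.4 with JQ1. Most of this sum is CDKN2A, so the shares of the other INK4 genes also move with CDKN2A. The INK4 shares also depend on the length used. With summed exon lengths, CDKN2A held 57.8% with DMSO, 61.2% with JQ1 and 51.7% with I-BET 762, and CDKN2D held 19.5%, 21.8% and 27.7%. The level of CDKN2D itself was 14.3, 11.8 and 14.3 on that scale, so its larger share with I-BET 762 is no rise in its level. The CDKN2C share was then 14.7%, 8.27% and 10.7%.

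**Figure D4:**
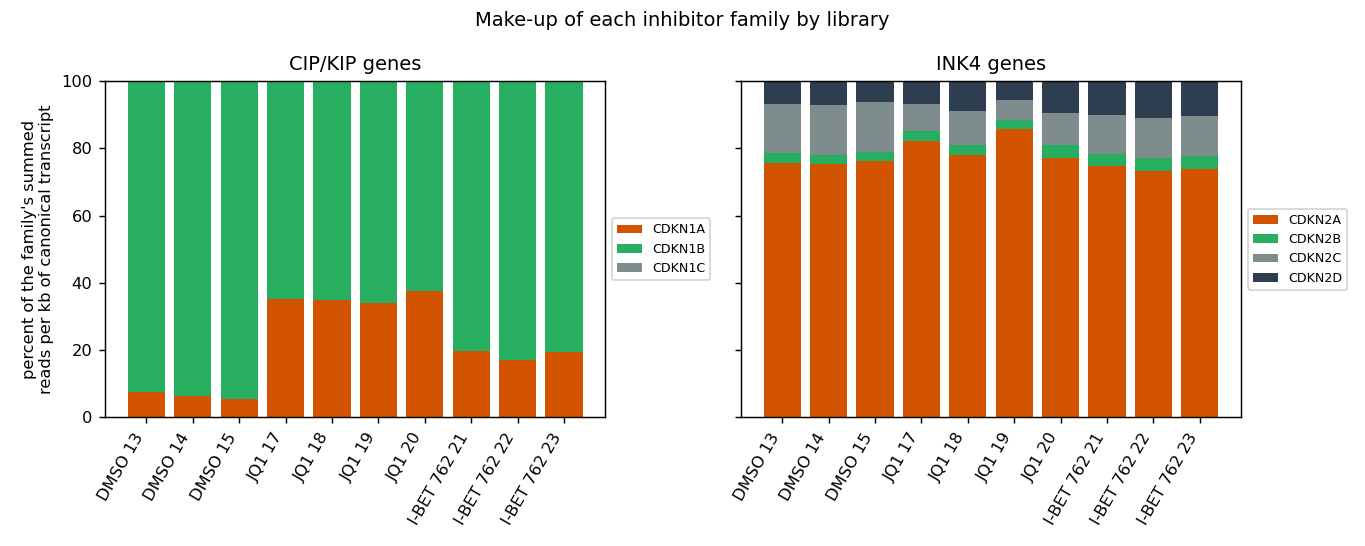
Share of each gene (vertical axis, percent) in the summed reads per kb of canonical transcript of the CIP/KIP family and of the INK4 family, 1 bar per library. CDKN1A takes 5.51% to 7.61% of the CIP/KIP sum in DMSO libraries, 34.0% to 37.6% in JQ1 libraries and 17.1% to 19.8% in I-BET 762 libraries, and CDKN2A takes most of the INK4 sum in every library.

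The kinases and cyclins that these inhibitors hold were read from the same fit. With JQ1, 3 of the 9 tested cyclins and CDKs of G1 and S phase rose and 5 fell at an adjusted p-value under 0.05, with a median log2 fold change of -0.36, against 0.01 over all genes tested. Of all genes tested, 36.0% rose and 35.6% fell at that threshold. I-BET 762 gave 3 that rose and 6 that fell, with a median of -0.21, against -0.000634 over all genes, of which 29.9% rose and 31.3% fell. After scaling to the same total, 1 rose and 6 fell with JQ1 (median -0.54) and 2 rose and 6 fell with I-BET 762 (-0.31). The medians over all genes tested were then -0.18 and -0.10. CDK6, the kinase bound by the INK4 proteins, fell with JQ1 and I-BET 762 (log2 fold changes -1.64, SE 0.08, and -1.18, SE 0.09), and so did CCND2, a D-type cyclin that activates it (-1.87, SE 0.05, and -1.41, SE 0.05). In what follows, paired values are log2 fold changes against DMSO, first with JQ1 and then with I-BET 762. CCND1, another D-type cyclin, rose (1.12, SE 0.07, and 0.58, SE 0.07), and CCND3 rose by 0.31 and 0.26. Only 1 gene of the list still rose with JQ1 after scaling to the same total, so the smaller CCND3 rise depends on the scaling. CDK4 fell by less than CDK6 (-0.36 and -0.21), and CDK2, the main partner of p21 and p27, fell (-0.61 and -0.49).

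Pocket proteins and E2F factors lie downstream of the CDKs. Of 14 such genes, 3 rose and 7 fell with JQ1 at a limma adjusted p-value under 0.05 (median log2 fold change -0.09). Over all genes tested, 36.0% rose and 35.6% fell. With I-BET 762, 1 rose and 7 fell (-0.13), against 29.9% and 31.3% of all genes. RB1, which encodes the retinoblastoma protein, had log2 fold changes of 0.08 (limma adjusted p = 0.425) and 0.01 (adjusted p = 0.922). E2F2, an activator of S phase genes, fell (-1.78 and -1.29), as did E2F8, a repressor of E2F targets (-1.13 and -0.82). Among 20 genes of G2 and M phase, 16 fell and 0 rose with JQ1 (median -0.36), and 15 fell and 0 rose with I-BET 762 (-0.28), with AURKA, a mitotic kinase, lowest at -1.10 and -0.91. Over all genes tested, 35.6% fell with JQ1 and 31.3% with I-BET 762. CDC20, a mitotic gene kept in the list of ubiquitin ligases and not in this one, rose by 0.37 and 0.20, and the latter call was lost after scaling to the same total (0.10, limma adjusted p = 0.0629). CKS1B and CKS2, which encode CDK-binding subunits, were also kept in that list. Mean normalized counts of CKS1B were 2999 with DMSO, 5239 with JQ1 and 4448 with I-BET 762, and those of CKS2 were 6236, 9852 and 7762. That 0 genes rose therefore holds only for the list as drawn.

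Proteins of the CDK inhibitors are turned over by ubiquitin ligases, whose protein activity was not measured here. Of the 14 genes listed for such ligases and their partners, 9 rose and 4 fell with JQ1 (median log2 fold change 0.27). Over all genes tested, 36.0% rose and 35.6% fell. With I-BET 762, 8 rose and 4 fell (0.20), against 29.9% and 31.3% of all genes. CKS1B and CKS2, which are not ligases, are in this list, so these counts are not of ligases alone. After scaling to the same total, 5 rose and 5 fell with JQ1 (median 0.08) and 6 rose and 5 fell with I-BET 762 (0.10). SKP2, which recognizes p27 for degradation, fell (-0.68, SE 0.05, and -0.50, SE 0.05), in the same libraries in which CDKN1B RNA fell. SKP1, the adaptor that joins SKP2 to its ligase, rose by 0.93 and 0.71.

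Of 24 known upstream regulators of CDK inhibitor genes, 12 rose and 7 fell with JQ1 at a limma adjusted p-value under 0.05 (median log2 fold change 0.17). Over all genes tested, 36.0% rose and 35.6% fell. With I-BET 762, 9 rose and 8 fell (0.08), against 29.9% and 31.3% of all genes. Both medians of this list were -0.01 after scaling to the same total. CEBPA, a factor that arrests growth, rose by 2.04 and 1.13, and FOXO1, a known activator of CDKN1B, by 1.12 and 1.03. TP63 and TP73, which encode transcription factors, fell (TP63 -2.72 and -2.31, TP73 -1.04 and -0.70). MYC, known to repress CDKN1A and CDKN2B, rose 2.002-fold with JQ1 (SE 0.05 on the log2 scale, limma adjusted p = 1.28e-10) and by a log2 fold change of 0.54 with I-BET 762 (SE 0.06, adjusted p = 8.22e-07). HEXIM1, a usual RNA readout of BET inhibition, rose by 1.53 and 1.05.

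**Figure D5:**
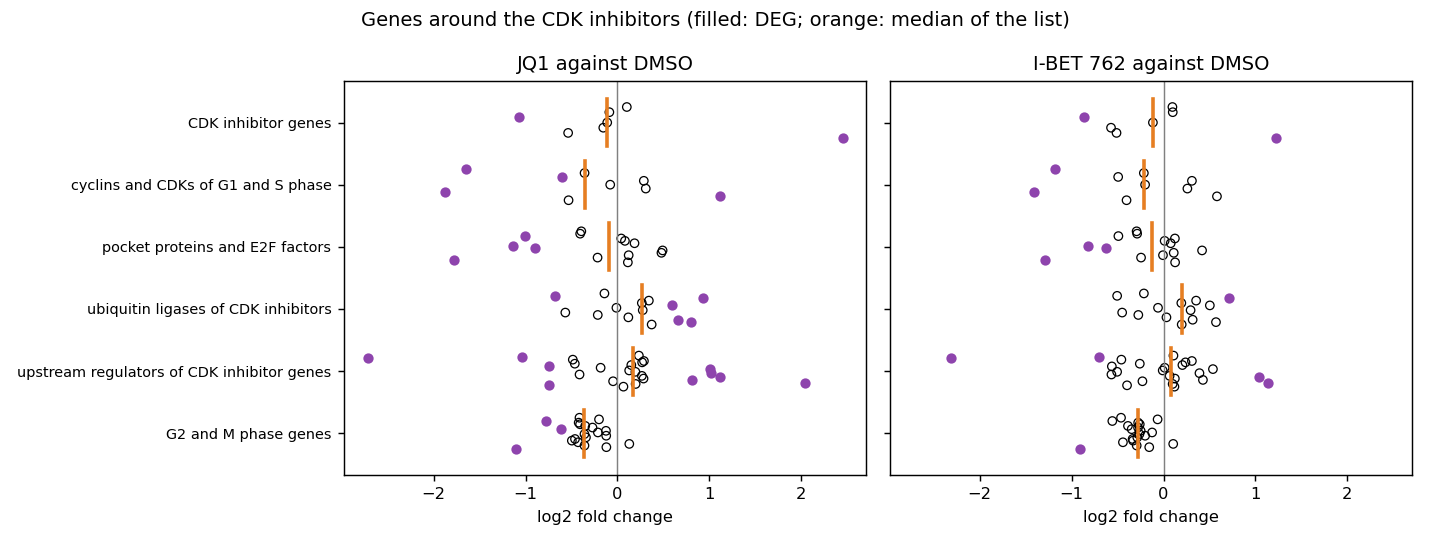
Log2 fold changes (horizontal axis) with JQ1 and with I-BET 762 against DMSO for the tested CDK inhibitor genes and 5 lists of genes around them; each point is a gene, filled where it is a DEG, and the orange line is the median of the list. The medians of the G2 and M phase list lie at -0.36 and -0.28, and the upstream regulators spread between -2.72 and 2.04 after JQ1.

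Genes within 100000 bases of a member were read beside the members. Of 30 such genes with values, 23 were tested, and 1 was a higher and 6 were lower DEGs with JQ1, 0 higher and 5 lower with I-BET 762. Over all genes tested 22.8% and 17.9% were lower DEGs, so these counts are no result about the surroundings of the members. CDKN2D, whose own change missed the threshold, lies near 3 of the lower DEGs: AP1M2, an adaptor subunit of epithelial cells 3612 bases away, fell (-2.51 and -1.72), as did KEAP1, the sensor of oxidative stress (-0.81 and -0.62), and PDE4A, a phosphodiesterase (-1.53 and -1.43). KRI1, 429 bases from CDKN2D, rose by 0.28 and 0.22, where scaling to the same total moved the median of all genes by -0.18 and -0.10. GPR19, which overlaps the CDKN1B gene body on the opposite strand without sharing an exon base, fell (-1.84 and -1.32) from a mean of 28.7 normalized counts. FAF1, 478 bases from CDKN2C, had values of 0.04 (limma adjusted p = 0.505) and 0.01 (adjusted p = 0.898), beside the falls of CDKN2C. CNIH1, 3343 bases from CDKN3, rose by 0.65 and 0.49.

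The tested genes most like each member were found by Pearson correlation of the log2 values over the 10 libraries, which share their treatments, so high values are common and no p-value is given. Most like CDKN1A were ATP6V0B (r = 0.997), LUCAT1 (0.995) and HMGA1 (0.994). HMGA1, a chromatin protein, had a mean of 814 normalized counts in DMSO libraries, of 1533 with I-BET 762 and of 2747 with JQ1. COA6, SNAI2 and AP4S1 were closest to CDKN1B (r from 0.991 to 0.993), and WIPF1, RNASEH2B and PLEK2 to CDKN2C (0.994 each). The pattern of CDKN2A with its split JQ1 group was most like that of the histone gene H3C13 (0.977), the interferon-induced gene IFI6 (0.975) and MCRIP2 (0.973). CDKN2B was closest to DLGAP3 (0.945), CDKN2D to SGK3 (0.928) and CDKN3 to GNA13 (0.970).

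Cell identity was checked by markers. Of 10 smooth muscle markers, 9 had values, and their summed normalized counts were 20502 to 21137 in DMSO libraries, 10662 to 11270.3 in JQ1 libraries and 11822 to 12374 in I-BET 762 libraries. CALD1, which encodes caldesmon, and ACTA2, smooth muscle actin, were the most abundant in all 3 groups by their means, while MYOCD and ACTG2 were under 10 normalized counts in all libraries, as were the uterine hormone receptors ESR1 and PGR. Of the 7 tested, 6 were lower DEGs with both inhibitors, among them TAGLN (-3.67 and -3.34) and DES (-4.63 and -3.16). The other, SMTN, was higher with both inhibitors at a limma adjusted p-value under 0.05 but was no DEG. After scaling to the same total, 0 of the 7 were higher at that threshold. Over all genes tested, 22.8% were lower DEGs with JQ1 and 17.9% with I-BET 762. The 6 epithelial markers summed to 1231 to 1290 with DMSO, 517 to 612 with JQ1 and 507 to 547 with I-BET 762, and KRT19 and EPCAM fell. The 5 immune and endothelial markers with values were under 10 normalized counts in every library. The part of these shifts in the changes of the CDK inhibitor genes was not tested, and in bulk RNA fewer cells of a kind and less RNA per cell cannot be told apart.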

How the data were processed

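RNA-seq of SK-UT-1 cells was analysed for 10 of the 12 labelled libraries, grouped by the treatment in the labels. As the authors state and per the labels, HISAT2 (2.2.1) mapped the Trimmomatic-trimmed reads to hg38, featureCounts (2.0.3) counted them per gene and DESeq2 normalized the counts, and outlier samples were excluded. As deposited, each value is log2 of a normalized count to which 1 was added, and values for the 22784 symbols reach 20.48. In each library 99.73% to 99.77% of them came out as whole reads (tolerance 0.01), which gave the reads and scaling factors. Libraries held 35564586 to 39658989 reads on genes, so counting error was small except for genes with few reads.

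Symbols with at least 10 normalized counts in at least 3 libraries were fitted with limma 3.58.1 (R 4.3.3), with an intensity trend and all 10 libraries in 1 model, and p-values were adjusted by Benjamini-Hochberg over 14839 symbols. The code was tested on simulated data. Tables used Python 3.11.15 and pandas 2.3.3. Lengths, positions and neighbors are from Gencode V44, and promoters from RefSeq, with 10 windows and none for CDKN1C. The members and gene lists were chosen with earlier results of these data known. Named genes were the 8 members, a fixed set of cell cycle genes, from each list up to 2 of the largest rises and falls that were DEGs with both inhibitors, tested neighbors within 100000 bases and the 3 genes most like each member. Alternatives were other pseudocounts (0.5 and 5), filters, scalings, variance models and fold thresholds, leaving out each library, and, chosen after seeing the data, limma-voom on the recovered reads and summed exon lengths. 1 gene of the fixed set and 1 gene list are not reported here. Count models (edgeR, DESeq2) were not run.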

Additional observations from a re-analysis of the deposited data

Results flagged for a closer look

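CDKN2D was marked in the JQ1 libraries because replicate 17 (770.3 normalized counts) stood apart from the other 3 (687 to 697), at a gap of 0.865 of the group's range. EPCAM, an epithelial marker, was marked in the JQ1 libraries in the same way, at 0.86. Of 36 sets of 4 libraries screened, 2 were marked, and chance marks about 1 in 20. CDKN1A was marked because its rise differed between the inhibitors, by a log2 fold change of 1.23 (SE 0.08, limma adjusted p = 8.19e-08) between JQ1 and I-BET 762.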

How the results depend on the processing

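No paired analysis was possible because the replicate numbers of the libraries all differ between groups. The planned count tests with edgeR and DESeq2 were not run. The changes of CDKN1A, CDKN1B and CDKN2C with either inhibitor kept their direction and an adjusted p-value under 0.05 under all 19 alternatives. Of all comparisons with an alternative, 477 were marked as the same, 15 as moved, 11 as reversed, 12 as stronger and 1 as weaker. For a fold change, the same means that its direction and side of the threshold were kept. Counts of genes, which have neither, are among the 477. Rescaling to equal totals moved the median of all genes by -0.18 with JQ1, -0.10 with I-BET 762 and -0.09 between the inhibitors, and it gave 1222 higher and 4217 lower DEGs with JQ1 and 994 and 3064 with I-BET 762. Genes past the threshold numbered 5358 with JQ1, 3991 with I-BET 762 and 788 between the inhibitors. They were 3359, 2338 and 418 among genes with a mean of at least 100 normalized counts, 10633, 9073 and 4047 without a fold threshold, 2958, 2108 and 206 at 2-fold, and 5192 to 5409, 3809 to 4027 and 603 to 875 leaving out each library.

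With JQ1, equal totals gave CDKN2B -0.30 and CDKN2D -0.27, both past the threshold, and CDKN3 -0.083, reversed. CDKN2A with JQ1 ranged from -0.31 to -0.0055 leaving out each library and passed without JQ1 replicate 19. With I-BET 762, CDKN2A (-0.57) missed the threshold without an intensity trend. Between the inhibitors, equal totals and equal upper quartiles gave CDKN2B -0.084 and -0.024, CDKN3 -0.083 and -0.023, both reversed, and CDKN2C -0.30 and -0.24 and CDKN2D -0.28 and -0.22, all past the threshold, as was CDKN2D (-0.19) among genes with a mean of at least 100. Leaving out each library gave ranges between the inhibitors of -0.051 to 0.013 for CDKN1B, 0.26 to 0.57 for CDKN2A, -0.069 to 0.096 for CDKN2B, -0.28 to -0.15 for CDKN2C, -0.23 to -0.16 for CDKN2D and -0.069 to 0.047 for CDKN3. DEGs with equal totals were 9 of the G2 and M phase list with JQ1, 2 ubiquitin ligase genes, 7 upstream regulators and 2 G2 and M phase genes with I-BET 762 (2 of the last with equal upper quartiles), and 1 pocket protein or E2F gene between the inhibitors. The causes were not tested beyond the scaling and the libraries left out. CDKN1C, with at most 4 reads per library, was limited by depth.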
